A study of Mus musculus with 8 samples.

Results

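Reads from exons and reads from introns of the same genes were compared between mouse spinal cord lacking the miR-34/449 microRNAs and wild-type cord. Genes were kept where the mean over all 8 libraries was 10 or more reads in both the exon and the intron column, which left 11004 of 41325 genes. Of these, 10565 were protein coding. The mean was taken over both genotypes, so a gene that is nearly silent in 1 genotype could pass through the other. For each gene the change in exon reads, the change in intron reads and the exon change minus the intron change were fitted, each as knockout minus wild type on a log2 scale.

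The triple knockout (TKO) carries Mir34a-/-, Mir34bc-/- and Mir 449-/- alleles, and the controls (WT) are C57BL/6J. The labels give no strain for the TKO mice and no treatment for either genotype. All tissue was taken at postnatal day 14, from the lumbar or the thoracic cord, with 2 libraries for each segment and genotype and so 4 per genotype. Polyadenylated RNA was sequenced from stranded libraries. The labels do not name the mouse behind each library, and the segments may share mice. The p-values below therefore rest on the spread among these libraries, part of which may be technical.

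Introns are removed from a transcript in the nucleus, mostly while it is being made, and are then degraded quickly. The number of reads in introns is therefore commonly used as a stand-in for the rate of transcription. Unfinished transcripts have no poly(A) tail yet, so in polyadenylated RNA this stand-in is weaker. The source of the intron reads was not tested here. Exon reads come mainly from finished mRNA, whose amount also depends on how long it lasts. A microRNA bound to a 3′ UTR shortens the life of its target mRNA in the cytoplasm, so its loss is looked for in exon reads that rise without a matching rise in introns. The split is a convention: a retained intron, a transcript inside an intron or a misplaced read also adds intron reads. In whole tissue, fewer cells of a type and less RNA per cell cannot be told apart by either kind of read.

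The deleted microRNAs share the seed, bases 2 to 8 of the mature strand, which pairs with target mRNAs. The mature sequences here were taken from RefSeq on build GRCm38.p6 and are shown because every site search rests on them. Capitals mark the seed, which is the same in all 4.
miR-34a-5p: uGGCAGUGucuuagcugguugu
miR-34b-5p: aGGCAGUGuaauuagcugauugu
miR-449a-5p: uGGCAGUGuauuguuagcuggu
miR-449c-5p: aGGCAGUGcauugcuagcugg
The other members deleted are miR-34c-5p and miR-449b-5p.

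Sites were searched as CACTGCCA (8mer), CACTGCC (7mer-m8) and ACTGCCA (7mer-A1) on the coding strand of the annotated 3′ UTR of each gene (GENCODE vM21, GRCm38). The 8mer contains both shorter motifs, and a gene was placed in the strongest class it holds. The stretches here come from genes whose values are given later, with the match in capitals.
Padi2: acgctcaacagtCACTGCCttcg
Rabgef1: gttttgggcaaaCACTGCCtttt
Fam107a: cagagaggaagcCACTGCCAggaa
Clmp: gttgaggctcacCACTGCCctgt
Slc47a1: gagactctagctCACTGCCActgt
Axl: acccaagctaggCACTGCCActgg
The match of Padi2 lies at bases 1954 to 1960 of a 2662-base 3′ UTR, and that of Rabgef1 at 284 to 290 of 1110. That of Fam107a lies at 243 to 250 of 2416, that of Clmp at 1711 to 1717 of 2709, that of Slc47a1 at 416 to 423 of 901 and that of Axl at 44 to 51 of 1389. A match describes the letters and shows no binding.

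Libraries held 16195212 to 20907819 gene reads. The genes tested held 80.8% of exon reads and 93.3% of intron reads, with a median over genes of 573 exon and 46.5 intron reads per library, so intron values carry the larger counting error. Of them, 5973 overlap another gene, and the strand setting of the counting is not known here, so reads of overlapping and antisense genes may be mixed. The precursors of the 6 deleted microRNAs had 0 exon and 0 intron reads over the 8 libraries of both genotypes. Precursors are hardly present in polyadenylated RNA, and their absence is no check of the genotype. The TKO replicate 2 libraries stood apart in both segments: mitochondrial transcripts took 4.99% and 6.53% of their reads, against 9.45% to 16.8% in the other 6.

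Intron reads made up a somewhat larger share of gene reads in TKO, within the spread of the libraries. The share was 5.09%, 6.23%, 4.40% and 6.69% in lumbar TKO replicates 1 and 2 and thoracic TKO replicates 1 and 2, an order kept for all values per library. In WT it was 4.60%, 4.39%, 4.87% and 5.22%. The TKO replicate 2 libraries were highest and the genotypes overlapped. The means were 5.60% ± 1.04 in TKO and 4.77% ± 0.359 in WT (SD, n = 4 libraries each), a difference of 0.833 percentage points (exact permutation test within segments, two-sided p = 0.278, where the smallest p that 36 arrangements allow is 0.0556). The difference was 0.548 points without lumbar TKO replicate 2, 0.262 without thoracic TKO replicate 2 and 1.40 without thoracic TKO replicate 1. Exon and intron counts were each scaled to their own libraries, so a shift common to all introns is not contained in the changes that follow.

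Few genes passed in any of the 3 comparisons. With edgeR's quasi-likelihood test, segment as a term and a Benjamini-Hochberg adjusted p under 0.05, the exon change passed for 8 genes (0.0727% of those tested), 7 higher (0.0636%) and 1 lower (0.00909%) in TKO. The intron change passed for 158 genes (1.44%), 117 higher (1.06%) and 41 lower (0.373%). The exon minus intron change passed for 6 genes (0.0545%), 2 higher (0.0182%) and 4 lower (0.0364%). At an unadjusted p under 0.05 these numbers were 2090 (19.0%), 1788 (16.2%) and 1127 (10.2%). The 4 TKO and 4 WT libraries did not overlap for 1171 genes in exons (10.6%), 949 in introns (8.62%) and 613 in exon minus intron (5.57%). The SD over genes was 0.33 for the exon, 0.37 for the intron and 0.34 for the exon minus intron change (log2), with median standard errors of 0.15, 0.22 and 0.24.

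The calls depended on single libraries. Leaving out libraries also lowers the power of the tests, so a lost call does not by itself mean a smaller change. Exon calls numbered 8 without both TKO replicate 2 libraries, 5 of them among the first 8, but 1533 without lumbar TKO replicate 1, 2 without thoracic TKO replicate 1, 5 when lumbar TKO replicate 2 was left out and 1 when a WT replicate 2 library of either segment was. Exon minus intron calls numbered 2 without both TKO replicate 2 libraries, Rabgef1 and Padi2. Intron calls numbered 21 without both TKO replicate 2 libraries, 11 higher and 10 lower, of which 14 were among the 158. Without lumbar TKO replicate 2 alone 27 passed, without thoracic TKO replicate 2 alone 22, without thoracic WT replicate 1 44 and without lumbar WT replicate 1 67, while 268 passed without lumbar TKO replicate 1. Without both replicate 2 libraries all 117 higher genes kept their direction, with a median log2 change of 0.68 against 0.89 with all libraries, and so did all 41 lower genes, with −0.83 against −0.96. When intron counts were scaled with the exon libraries, the median intron change of all genes moved to 0.21 and the split of calls became 414 higher and 14 lower. Changes are given relative to the introns' own scaling.

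**Figure D1:**
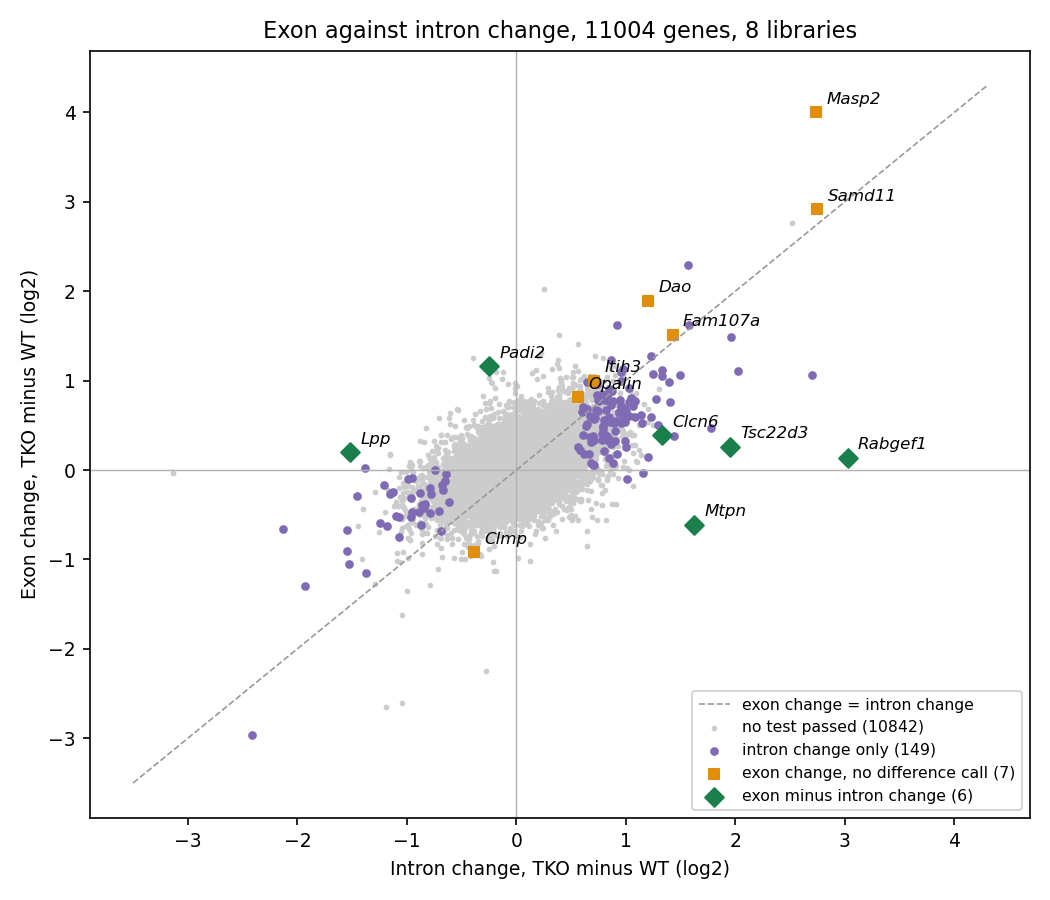
Each point is 1 of 11004 genes, with its intron change on the x axis and its exon change on the y axis (both log2, TKO minus WT, 8 libraries), coloured by which edgeR test it passed. Points on the diagonal changed equally in both. Rabgef1 lies at an intron change of 3.03 and an exon change of 0.14, Padi2 at −0.25 and 1.16, and Masp2 is high in both.

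Rabgef1 had the widest gap of the 6 called genes: its intron reads rose while its exon reads hardly moved. Rabgef1 encodes Rabex-5, which activates the small GTPase Rab5 on early endosomes (chromosome 5, 130171798 to 130214342, plus strand). Its intron reads were 352, 321, 307 and 417 in TKO and 35, 40, 34 and 46 in WT. The genotypes lay far apart in both segments. Its exon reads were 489, 489, 437 and 467 in TKO and 428, 457, 437 and 477 in WT, and these overlapped. The intron level was 374.1 ± 20.01 CPM in TKO and 46.04 ± 7.35 in WT (CPM, reads per 1000000 of the scaled intron library, SD, n = 4), an 8.14-fold rise (log2 3.03, SE 0.169, edgeR adjusted p = 8.18e-11). The exon level was 33.96 ± 2.64 CPM in TKO and 30.9 ± 1.2 in WT (log2 0.14, SE 0.112, edgeR adjusted p = 0.471). The difference, exon minus intron, was −2.90 (SE 0.185, edgeR adjusted p = 1.34e-08). It passed in all 8 fits that left out 1 library and in each segment alone, and leaving out both TKO replicate 2 libraries gave −3.00. Of its intron reads 99.7% were uniquely placed and no other annotated gene overlaps it. Rabgef1 holds the 7mer-m8 match printed above, and its exon change did not pass.

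Padi2 went the other way, with more exon reads and no rise in introns. Padi2 encodes a deiminase that converts arginine to citrulline, with myelin basic protein among its substrates (chromosome 4, 140906344 to 140952586, plus strand). Its exon reads were 4134, 3429, 5014 and 4777 in TKO and 1842, 1876, 2040 and 2345 in WT. Its intron reads were 77, 89, 97 and 138 in TKO and 91, 80, 123 and 143 in WT. The genotypes were separate in exon reads and overlapped in intron reads. The exon level was 312.7 ± 51.7 CPM in TKO and 138.8 ± 12.7 in WT (log2 1.16, SE 0.106, edgeR adjusted p = 0.00432), and the intron level 107.3 ± 22.8 CPM in TKO and 127.2 ± 20.3 in WT (log2 −0.25, SE 0.159, edgeR adjusted p = 0.451). The exon minus intron change was 1.42 (SE 0.164, edgeR adjusted p = 0.000206). It passed in all 8 fits without 1 library and without both TKO replicate 2 libraries (1.53), but not in the lumbar cord alone (1.39, adjusted p = 0.146). Padi2 holds the 7mer-m8 match printed above, and 2 annotated genes overlap its span.

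Clcn6 and Tsc22d3 had more intron reads in TKO, and their exon changes did not pass. Clcn6 encodes a chloride and proton exchanger of late endosomes (chromosome 4, 148004259 to 148038821, minus strand). In introns it had 166, 198, 176 and 250 in TKO and 61, 64, 67 and 93 in WT, with no overlap. The intron change was 1.33 (SE 0.163, edgeR adjusted p = 9.14e-05), the exon change 0.39 (adjusted p = 0.182) and the exon minus intron change −0.94 (SE 0.163, adjusted p = 0.0263). Tsc22d3 encodes GILZ, a leucine zipper protein that glucocorticoids induce (chromosome X, 140539528 to 140600659, minus strand). Intron reads numbered 29, 55, 22 and 46 in TKO and 7, 8, 8 and 12 in WT. The TKO replicate 2 libraries were highest. The intron change was 1.95 (SE 0.32, edgeR adjusted p = 0.00318), the exon change 0.26 (adjusted p = 0.235) and the exon minus intron change −1.68 (SE 0.295, adjusted p = 0.0267). Of the 8 fits without 1 library, the exon minus intron call was kept in 1 for Clcn6, the fit without lumbar TKO replicate 1, and in 3 for Tsc22d3. When both TKO replicate 2 libraries were left out, the values were −0.95 for Clcn6 (adjusted p = 0.491) and −1.29 for Tsc22d3 (adjusted p = 0.85), and the intron call was kept for Clcn6 and lost for Tsc22d3 (adjusted p = 0.264).

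Lpp and Mtpn complete the 6 genes, and most of their intron reads were not uniquely placed. Lpp encodes a LIM domain protein of cell adhesions (chromosome 16, 24393507 to 24992578, plus strand). Intron reads numbered 35, 29, 26 and 15 in TKO and 60, 76, 68 and 67 in WT, and its exon reads were 252, 170, 166 and 172 in TKO and 178, 160, 176 and 173 in WT. The genotypes were separate in introns and overlapped in exons. The difference was 1.74 (SE 0.269, edgeR adjusted p = 0.0104). Only 40.96% of its intron reads were uniquely placed, and on unique reads the value was 1.04 (adjusted p = 0.32). Mtpn encodes myotrophin, an ankyrin repeat protein (chromosome 6, 35508906 to 35539888, minus strand). In introns it had 18, 15, 45 and 20 in TKO and 8, 6, 6 and 9 in WT, without overlap. The difference was −2.30 (SE 0.394, edgeR adjusted p = 0.0263). Of its intron reads 21.3% were uniquely placed, and on unique reads the direction turned (0.35, adjusted p = 0.877). The exon minus intron call was kept in 5 of the 8 fits without 1 library for Lpp and in 3 for Mtpn.

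**Figure D2:**
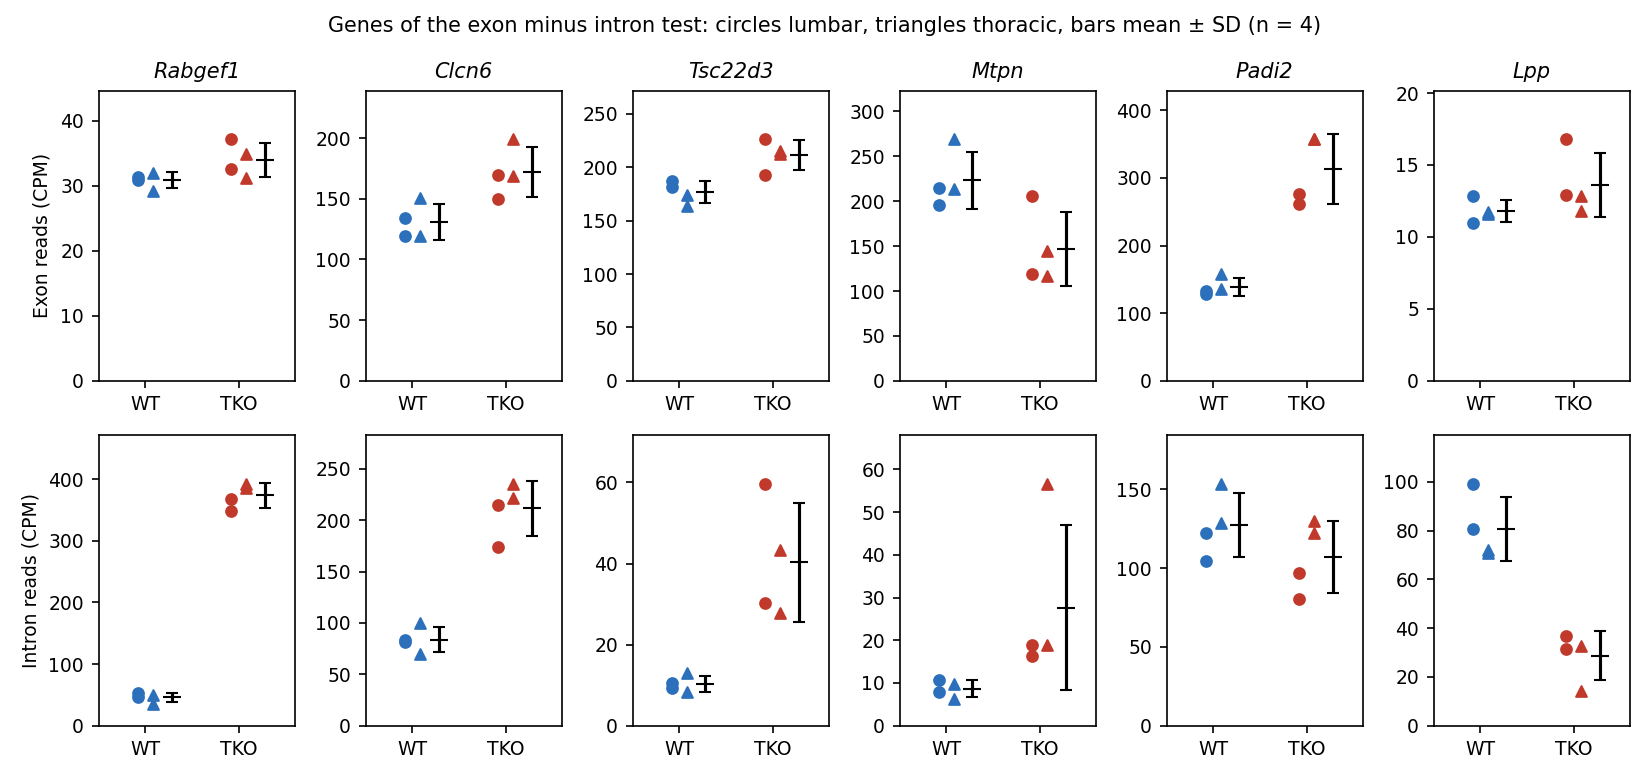
Exon and intron levels (y axes, reads per 1000000 of the scaled library, from 0) of the 6 genes whose exon minus intron change passed, 1 point per library (circles lumbar, triangles thoracic), with mean ± SD over the 4 libraries of a genotype. Intron levels of Rabgef1 were 348.5 to 393 CPM in TKO and 35.5 to 52.3 in WT, while exon levels of Padi2 were 260.8 to 357.5 in TKO and 128.8 to 157.3 in WT.

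The genes next in order of p did not pass. Zfp367, a zinc finger gene, had an exon minus intron value of 1.18 (edgeR adjusted p = 0.218). Prdm16, a zinc finger regulator of cell fate, was at 0.90 (adjusted p = 0.139), with an exon level of 10.5 ± 1.94 CPM in TKO and 7.42 ± 1.65 in WT and an intron level of 164.5 ± 17.3 CPM in TKO and 219.2 ± 54.5 in WT. Cnbd2, a protein with a cyclic nucleotide binding domain, was at 0.92 (adjusted p = 0.206), with an exon level of 12.2 ± 1.74 CPM in TKO and 6.45 ± 0.385 in WT and an intron level of 109.5 ± 6.1 CPM in TKO and 110.4 ± 12.96 in WT. On the lower side Noc2l, a nucleolar protein, was at −1.12 (adjusted p = 0.0903). Its intron reads were 238, 200, 169 and 208 in TKO and 88, 90, 122 and 65 in WT, without overlap, an intron change of 1.02 (SE 0.171, edgeR adjusted p = 0.00388) beside an exon value of −0.10.

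Of the 7 genes whose exon reads rose, 4 also rose in introns: Masp2, Samd11, Fam107a and Itih3. Masp2 encodes an enzyme that starts complement activation through lectins. It had 70, 61, 63 and 72 in TKO and 6, 5, 3 and 3 in WT as exon reads and 31, 23, 27 and 24 in TKO and 3, 4, 2 and 5 in WT as intron reads, with no overlap in either. Its exon change was 4.0 (SE 0.276, edgeR adjusted p = 0.000649) and its intron change 2.73 (SE 0.383, edgeR adjusted p = 0.000502). The exon minus intron value of 1.22 did not pass (SE 0.544, adjusted p = 0.457), and WT counts this low limit it. Samd11, a SAM domain protein, changed by 2.92 in exons (edgeR adjusted p = 0.00755) and 2.75 in introns (adjusted p = 0.000153), and its exon minus intron value was 0.14 (SE 0.418). Fam107a, which binds actin and marks astrocytes, had exon reads of 1631, 2047, 1725 and 2203 in TKO and 698, 606, 873 and 638 in WT. Its intron reads were 55, 65, 68 and 82 in TKO and 24, 11, 38 and 20 in WT, so both kinds were separate between genotypes. The exon change was 1.52 (SE 0.167, edgeR adjusted p = 0.00926), the intron change 1.43 (SE 0.246, adjusted p = 0.00484) and the exon minus intron value 0.05 (SE 0.24, adjusted p = 0.957). Fam107a holds the 8mer match printed above.

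Apart from Padi2, the exon calls all had intron values in the same direction as the exon change. Itih3, a heavy chain of an inhibitor that binds hyaluronan, rose by 1.00 in exons (SE 0.104, edgeR adjusted p = 0.00755) and by 0.71 in introns (SE 0.165, adjusted p = 0.0332). Dao, the D-amino acid oxidase of astrocytes, rose by 1.89 in exons (adjusted p = 0.0199), with an intron value of 1.2 (adjusted p = 0.0928). Opalin, a membrane protein of myelin, rose by 0.81 in exons (adjusted p = 0.0458), with 0.56 in introns (adjusted p = 0.0847). Their exon minus intron values were 0.29, 0.74 and 0.26, none past the test. Clmp, an adhesion protein of cell junctions, was the only gene called lower in exons, with reads of 276, 214, 294 and 242 in TKO and 501, 524, 535 and 470 in WT (log2 −0.92, SE 0.127, edgeR adjusted p = 0.0458). Its intron value was −0.39 (adjusted p = 0.331), and its 3′ UTR holds the 7mer-m8 match printed above. Without both TKO replicate 2 libraries the exon calls of Dao, Opalin and Clmp were lost (adjusted p = 0.0819, 0.223 and 0.251), as were the intron calls of Fam107a and Itih3 (0.105 and 0.432). Leaving out lumbar WT replicate 2 or thoracic WT replicate 2 left 1 exon call in each case. Masp2 was called in exons in all 8 fits without 1 library, and the other 7 genes in 1 to 6 of them.

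Next in order of p among lower exon values were Slc47a1, Zfp984, Lsm11 and Kcnip1, none of which passed. Slc47a1, an exporter of organic cations, had exon reads of 4, 16, 10 and 31 in TKO and 101, 41, 160 and 222 in WT and intron reads of 2, 12, 1 and 17 in TKO and 14, 19, 46 and 96 in WT. The genotypes did not overlap after scaling, and the TKO replicate 2 libraries were the higher of each TKO pair. The exon value was −2.96 (edgeR adjusted p = 0.0672) and the intron change −2.42 (SE 0.529, adjusted p = 0.0411). Both passed without the TKO replicate 2 libraries, at −4.16 (adjusted p = 0.0121) and −4.60 (0.0012), and this gene holds the 8mer match printed above. Lsm11, a subunit of the U7 snRNP that processes histone mRNA, had −0.60 in exons and −0.54 in introns, on 4 to 17 intron reads per library. Zfp984, a zinc finger gene, had −2.25 in exons and −0.27 in introns, with 21.7% of intron reads uniquely placed. Kcnip1, a partner of potassium channels, had −0.61 in exons, and only 1.75% of its intron reads were uniquely placed.

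Among the 10 named genes with the largest intron rise, the exon change passed for Masp2 and Samd11. Zfp993, a zinc finger gene, had an intron change of 2.70 (edgeR adjusted p = 6e-05), but with 12.6% of intron reads uniquely placed. On unique reads its intron call was lost (1.51, edgeR adjusted p = 0.347). Ntn4, a netrin of basement membranes, had an intron change of 1.78 (adjusted p = 0.0278) and an exon value of 0.47 (adjusted p = 0.308). Sspo, which encodes SCO-spondin, the main protein of Reissner's fibre in the central canal, had intron reads of 25, 42, 27 and 99 in TKO and 12, 13, 19 and 13 in WT. The TKO replicate 2 libraries were highest, and the intron change was 1.57 (adjusted p = 0.0199), beside an exon value of 2.29 (adjusted p = 0.124). Nxt1, a cofactor of mRNA export, rose by 1.5 in introns (adjusted p = 0.0278), with an exon value of 1.06 (adjusted p = 0.0718). Bcl2l1, the survival factor Bcl-xL, had intron reads of 39, 33, 22 and 47 in TKO and 11, 6, 16 and 14 in WT, without overlap (log2 1.44, SE 0.291, edgeR adjusted p = 0.0153). Its exon value was 0.38 and its exon minus intron value −1.06 (adjusted p = 0.322). The intron calls of Ntn4, Sspo, Nxt1 and Bcl2l1 were lost without both TKO replicate 2 libraries, at values of 1.09, 0.84, 1.73 and 1.32. The value of Nxt1 was then no smaller than with all libraries, and fewer libraries lower the power.

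Among the 10 named genes with the largest intron fall no exon change passed. Rsg1, a GTPase needed to build cilia, had intron reads of 27, 12, 20 and 24 in TKO and 62, 92, 91 and 87 in WT, far apart between genotypes (log2 −2.13, SE 0.233, edgeR adjusted p = 2.69e-05). Its exon reads were only 5 to 20 per library, with a value of −0.66 (adjusted p = 0.351), and the intron call was kept without both TKO replicate 2 libraries (−1.87, adjusted p = 0.00178). Fabp7, the fatty acid binding protein of radial glia, had intron reads of 36, 18, 51 and 22 in TKO and 65, 99, 100 and 80 in WT. The genotypes did not overlap, and the TKO replicate 2 libraries were lowest (log2 −1.55, adjusted p = 0.0139), with an exon value of −0.90 (adjusted p = 0.145). Layn, a hyaluronan receptor, was at −1.55 (adjusted p = 0.00695), and Neil3, a DNA glycosylase of dividing cells, at −1.53 (0.0411). Zfp367 was at −1.46 (adjusted p = 0.00419), Ube2s, a ubiquitin-conjugating enzyme of mitosis, at −1.38 (0.0411), and Rbmxl1, an RNA-binding protein, at −1.21 (0.0127). For these last 3 the exon values were −0.29, 0.03 and −0.17. Only 19.4% of the exon reads of Ube2s and 30.8% of those of Rbmxl1 were uniquely placed. On unique reads their exon values were −0.21, where the direction turned for Ube2s, and −0.27. Zfp933, a zinc finger gene, was at −1.18 (adjusted p = 0.0127) with 54.8% of intron reads uniquely placed. On unique reads it was at −2.69, and its exon minus intron change then passed (2.07, edgeR adjusted p = 0.0423). Without both TKO replicate 2 libraries the intron calls of Fabp7, Layn, Neil3, Zfp367, Ube2s, Rbmxl1, Zfp933 and Lpp were lost, at values between −1.47 and −1.01. That of Zfp367 was −1.47, against −1.46 with all libraries.

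Over all intron calls the median exon value lay in the same direction but nearer to 0. The 117 higher genes had a median intron change of 0.89, exon change of 0.60 and exon minus intron change of −0.33. The 41 lower genes had medians of −0.96, −0.39 and 0.56. Over all genes tested the medians were −0.00, 0.00 and 0.02. These genes were chosen by their intron values, which enter the difference with their sign turned, so the medians are a description. The higher genes had a median of 92.1 intron reads per library and the lower ones 50.4, against 46.5 over all genes.

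To avoid shared counts, the intron change of each gene in 1 segment was set against all 3 changes in the other segment, which uses other libraries. In 1084 genes with a lumbar intron change above 0.5, the median thoracic values were 0.37 for introns, 0.31 for exons and −0.07 for exon minus intron. In 1081 genes with a lumbar intron change below −0.5 they were −0.30, −0.16 and 0.17. With all libraries, median exon values had the sign of the intron change in the other segment, and median exon minus intron values the opposite sign. In the reverse direction, 1418 genes above 0.5 in the thoracic cord had lumbar medians of 0.29 for introns, 0.14 for exons and −0.14 for exon minus intron. The 1216 genes below −0.5 had −0.31, −0.13 and 0.16. Across 11004 genes Pearson's r was 0.44 for introns against introns, 0.26 for lumbar introns against thoracic exons and 0.34 for thoracic introns against lumbar exons. Genes are not independent replicates, the segments may share mice, and gene length and read number are shared between the points, so no p is given.

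**Figure D3:**
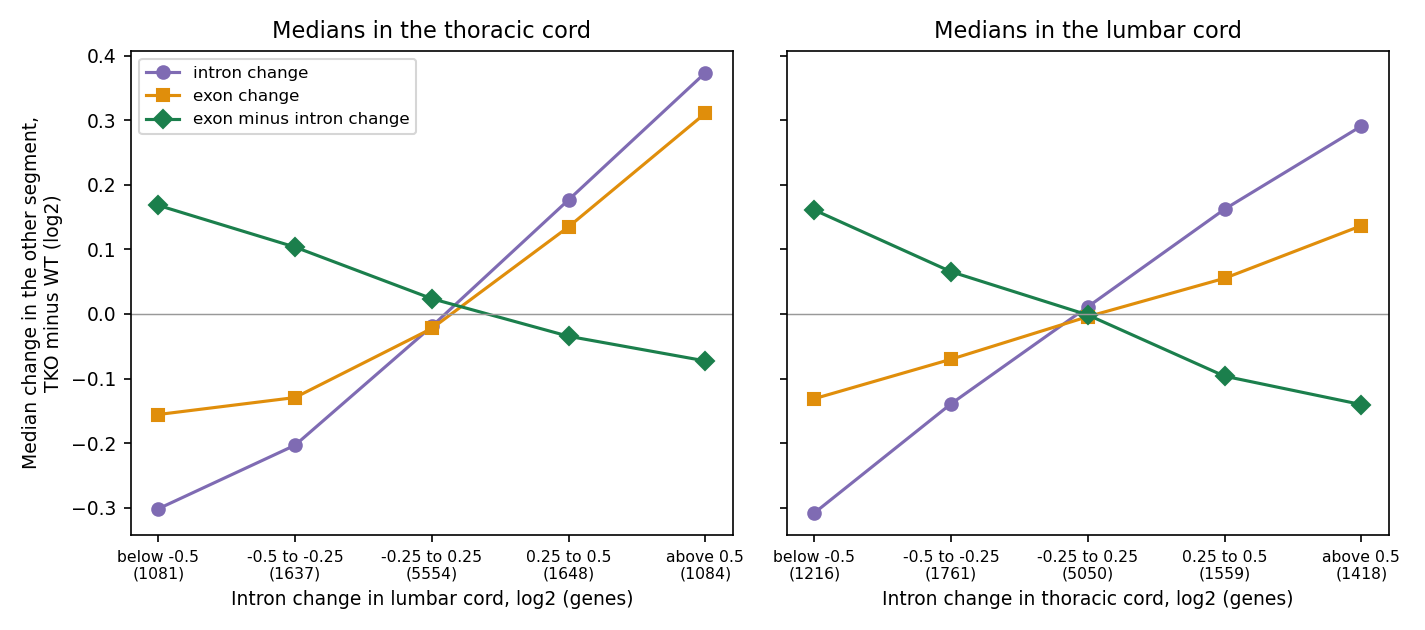
Genes were binned by their intron change in 1 segment (x axis, log2), and the points give the median intron, exon and exon minus intron change (y axis, log2, TKO minus WT) in the other segment. From the lowest to the highest bin of lumbar intron change, thoracic exon medians went from −0.16 to 0.31 and exon minus intron medians from 0.17 to −0.07.

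The exon side of this relation was much weaker without the TKO replicate 2 libraries. TKO replicate 2 was not run alone, and a single knockout library per segment adds noise to every change. Which libraries the relation rests on was therefore not tested. On mean log2 CPM with all libraries, the slope of thoracic exon on lumbar intron change was 0.312 and that of lumbar exon on thoracic intron change 0.205. With TKO replicate 1 as the only knockout library of each segment these slopes were 0.0745 and 0.0263, and the exon medians no longer all had the sign of the intron change. Genes above 0.5 in thoracic introns then had a lumbar exon median of −0.05 and those below −0.5 one of −0.01, while genes above 0.5 in lumbar introns had a thoracic exon median of 0.06 and those below −0.5 one of 0.01. Among genes with a mean of 100 or more intron reads the slope of lumbar exon on thoracic intron change was 0.224 with all libraries and −0.0402 with TKO replicate 1 only. The slope of intron on intron change over all genes went from 0.468 and 0.390 to 0.220 and 0.185. That of exon minus intron on intron change went from −0.156 and −0.185 to −0.146 and −0.158. Among the 2266 genes with a mean of 100 or more intron reads, r for introns against introns was 0.62 with all libraries and 0.28 with TKO replicate 1 only.

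Between segments the genotype effect was not called different for any gene. The difference between the lumbar and the thoracic effect passed for 0 of 11004 genes in exons, introns and exon minus intron with edgeR's quasi-likelihood test, the only tool run for it. At an unadjusted p under 0.05 there were 350, 237 and 263 genes. With 2 libraries for each segment and genotype, the absence of calls does not show that the segments are alike.

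Genes near the deleted Mir34a locus were called more often than genes near none of the deleted loci, a difference given as shares and not tested. Of 126 genes tested within 10 Mb of Mir34a (chromosome 4, 150068454 to 150068555), the intron change passed for 11 (8.73%), 8 higher and 3 lower, against 141 of 10675 genes near none of the deleted loci (1.32%). The 11 were Atp13a2, Clcn6, Masp2, Mib2, Miip, Noc2l, Rcc2, Rsg1, Samd11, Zfp933 and Zfp993. The call of Zfp993 was lost on unique reads. Exon reads passed for Masp2, Padi2 and Samd11 of these 126 (2.38%), against 5 genes elsewhere (0.0468%), and exon minus intron for Clcn6 and Padi2 (1.59%), against 4 (0.0375%). Near Mir34b and Mir34c on chromosome 9, 6 of 150 genes passed in introns (4%), Layn among them, and 0 in exons and in exon minus intron. Near Mir449 on chromosome 13, 0 of 53 genes passed in any of the 3 edgeR tests. Neighbouring genes are not independent, the strain of the TKO is not labelled, and the part of either in these shares was not tested.

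Genes of myelinating oligodendrocytes, which wrap axons in myelin, had high exon values and smaller intron values. Of 24 genes, 2 passed in exons as higher (Padi2 and Opalin), 1 in introns (Myrf, the regulator of myelin genes, at 0.85) and 1 in exon minus intron (Padi2). The median exon change was 0.47, the median intron change 0.29 and the median exon minus intron change 0.16, with 23, 23 and 16 of 24 above 0. Over all 11004 genes 5565, 5462 and 5766 lay above 0. Of all genes tested, 0.0727% passed in exons, 1.44% in introns and 0.0545% in exon minus intron. At an unadjusted p under 0.05 (edgeR) these shares were 19.0%, 16.2% and 10.2%. Counts in this and the following lists are to be read beside these shares. Ndrg1, a protein of myelinating glia, had 0.70 in exons and 0.08 in introns, and Ugt8a, which makes the myelin lipid galactosylceramide, −0.16 and 0.49. Trf, the iron carrier transferrin, had 0.54 in exons and 0.08 in introns, and 0% of its intron reads were uniquely placed. No exon minus intron value of these 3 passed. The list's median exon to intron ratio per library (log2, centred per gene within the segment) overlapped between genotypes. This ratio was 0.16, −0.03, 0.09 and 0.05 in TKO and −0.18, 0.07, −0.17 and −0.00 in WT. The call of Myrf was lost without both TKO replicate 2 libraries (0.61, adjusted p = 0.613). The genes in this and the following lists were chosen with results of these libraries known, so a list's direction is not independent evidence, and the part of cell numbers in any list was not tested.

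Astrocyte genes, of the glia that supply and buffer neurons, had a median exon value well above their median intron value. Of 22 genes, 2 passed in exons as higher (Fam107a and Itih3), 3 in introns as higher (these and Aldoc, a glycolytic enzyme, at 0.94) and 0 in exon minus intron (7 at an unadjusted p under 0.05, edgeR). The medians were 0.43 in exons, 0.10 in introns and 0.24 in exon minus intron, and 19 of 22 exon minus intron values were above 0. Ntsr2, a neurotensin receptor, had an exon level of 258.8 ± 6.79 CPM in TKO and 197.2 ± 6.84 in WT, with introns at 45.9 ± 1.98 CPM in TKO and 65.4 ± 26.1 in WT. Its exon minus intron value was 0.87 (adjusted p = 0.322), that of Apoe, the lipid carrier, 0.79 (0.322), that of Gja1, the gap junction protein connexin 43, 0.59 (0.376) and that of Slc4a4, a bicarbonate transporter, 0.45 (0.376). The list's median exon to intron ratio per library (log2, centred per gene within the segment) was 0.14, 0.10, 0.04 and 0.30 in TKO and −0.15, −0.03, −0.33 and −0.04 in WT. The genotypes did not overlap, and without both TKO replicate 2 libraries the median exon minus intron change was 0.22 and the call of Aldoc was lost (adjusted p = 0.334).

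Endothelial and mural genes, of the vessel wall, had a median intron value below 0 and a median exon value near 0. All 8 genes with values lay above 0 in exon minus intron, with a median of 0.64, a median intron change of −0.69 and a median exon change of −0.09. Slco1c1, the thyroxine carrier of the blood-brain barrier, passed in introns (−0.99, SE 0.223, edgeR adjusted p = 0.0339), and no gene of the list passed in exons (1 at an unadjusted p under 0.05) or in exon minus intron (5). Its intron reads were 93, 72, 100 and 102 in TKO and 168, 115, 274 and 114 in WT. These counts were separate, but the genotypes overlapped after scaling. Thoracic TKO replicate 1 stood at 125.9 CPM and thoracic WT replicate 2 at 122.5. Flt1 and Kdr, the VEGF receptors, had exon minus intron values of 0.68 (adjusted p = 0.332) and 0.84 (0.416), and Abcb1a, the drug exporter of the barrier, 0.87 (0.376). The list's centred exon to intron ratio was 0.43, 0.34, 0.11 and 0.38 in TKO and −0.50, −0.31, −0.54 and 0.06 in WT, without overlap. Without both TKO replicate 2 libraries the median exon minus intron change was 0.59, the intron median −0.46 and the exon median 0.06, where the exon sign turned, and the call of Slco1c1 was lost (−0.82, adjusted p = 0.613). Of the 18 genes listed, 8 had enough reads.

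Neuronal lists lay on the other side. Genes of inhibitory transmission had a median exon change of −0.32, intron change of 0.05 and exon minus intron change of −0.15. In the last 15 of 21 lay below 0, and 0 passed in any edgeR test. At an unadjusted p under 0.05 there were 9, 2 and 5, against 19.0%, 16.2% and 10.2% of all genes. Glrb, a glycine receptor subunit, was at −0.51 in exons and −0.04 in introns. Gabra2, a GABA receptor subunit, had −0.38 and 0.18, and Slc6a5, the glycine transporter of inhibitory terminals, −0.11 and 0.36. Slc6a9, the glycine transporter of glia on the same list, had 0.63 and 0.13. The list's centred exon to intron ratio was −0.08, −0.12, −0.14 and −0.09 in TKO and 0.04, 0.16, 0.06 and 0.09 in WT, without overlap. Motor neuron genes had a median exon minus intron change of −0.15, with 9 of 12 below 0 and 0 passing in any edgeR test (2, 1 and 0 at an unadjusted p under 0.05). Their centred ratio was −0.11, −0.05, −0.22 and −0.05 in TKO and 0.06, 0.08, 0.17 and 0.06 in WT, also without overlap. The median exon change of this list was −0.13 and its median intron change 0.02, with 6 intron values above 0 and 6 below. Nefm, a neurofilament subunit, was at −0.17 in exons and 0.25 in introns, and Rbfox3, the neuronal splicing factor known as NeuN, at 0.21 and 0.44. Slc5a7 was lower in both, at −0.74 and −0.36, as was Esrrg, at −0.56 and −0.25. Without both TKO replicate 2 libraries the median exon minus intron changes of the 2 lists were −0.11 and −0.18, and the exon median of the inhibitory list was −0.21.

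**Figure D4:**
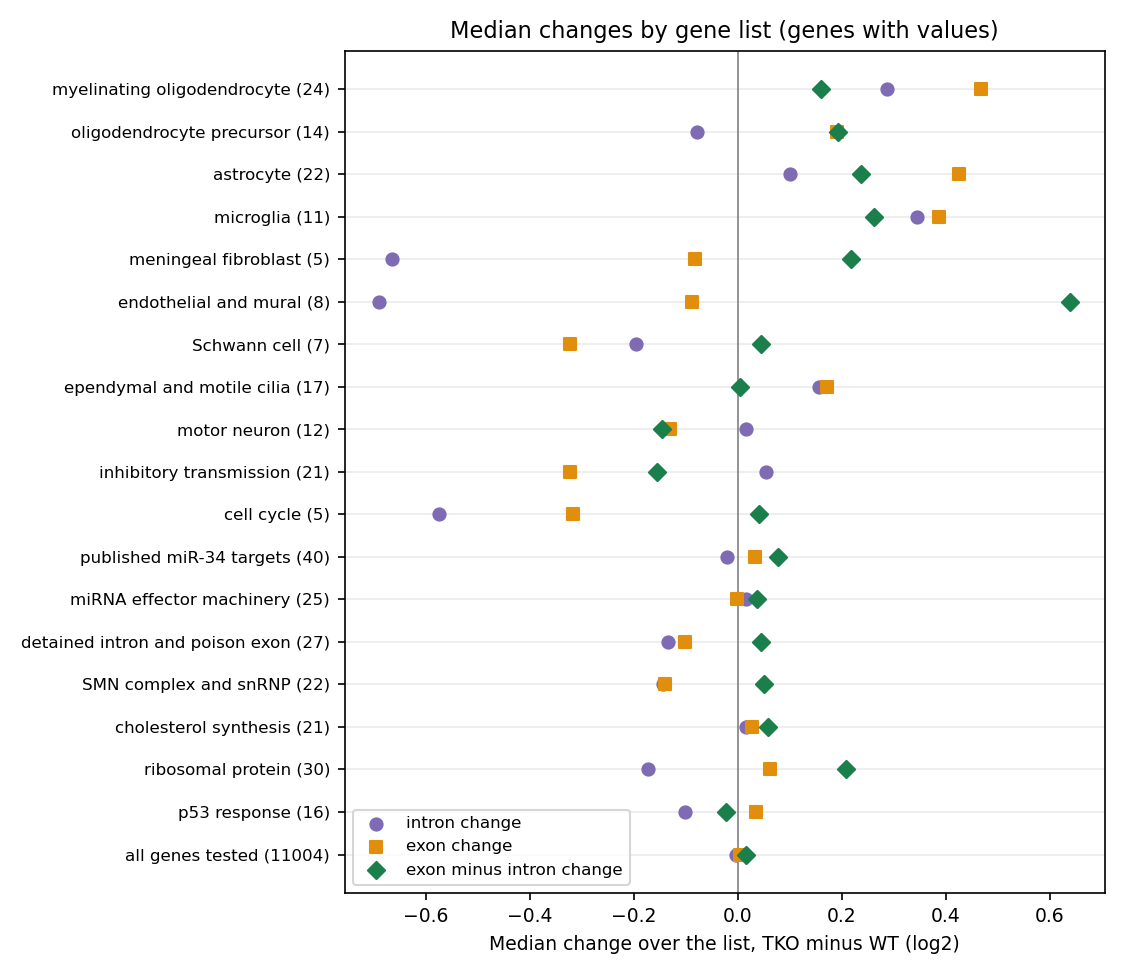
Median exon, intron and exon minus intron change (x axis, log2, TKO minus WT) for each gene list with 5 or more genes with values (y axis), with all genes tested in a row of their own. Endothelial and mural genes stand at −0.69 in introns and 0.64 in exon minus intron, and inhibitory transmission genes at −0.32 in exons and 0.05 in introns.

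The remaining cell type lists were smaller or mixed. Of 14 oligodendrocyte precursor genes, 11 lay above 0 in exon minus intron (median 0.19, 0 passing with edgeR, 6 at an unadjusted p under 0.05). Their centred exon to intron ratio was 0.06, 0.10, −0.03 and 0.26 in TKO and −0.16, −0.01, −0.29 and 0.04 in WT, with overlap. Gpr17, a receptor of differentiating precursors, was at 0.72, Cspg4, the proteoglycan NG2, at 0.97, Olig2, a lineage factor, at 0.58 and Lhfpl3 at −0.69. Over 11 microglial genes the median was 0.39 in exons, 0.34 in introns and 0.26 in exon minus intron, and 1 passed in introns, Csf3r, the receptor for a granulocyte growth factor (0.96), a call lost without both TKO replicate 2 libraries (adjusted p = 0.693). Sall1, a factor of microglial identity, was at 0.50 in exon minus intron. The centred exon to intron ratio of the microglial list overlapped between genotypes. Only 5 of 20 meningeal fibroblast genes had enough intron reads (median intron change −0.67, exon minus intron 0.22). Among them Pdgfrb, a growth factor receptor, was at 0.84 and Mgp, a matrix protein, at −0.90 in exon minus intron. Over 7 Schwann cell genes the medians were −0.32 in exons, −0.20 in introns and 0.05 in exon minus intron. Their exon median per library was −1.60, 0.43, −0.44 and 0.71 in TKO and 0.90, 0.19, −0.20 and 0.32 in WT, lowest in lumbar TKO replicate 1, and without both TKO replicate 2 libraries the medians were −1.33 in exons, −0.88 in introns and −0.21 in exon minus intron, where the direction turned. Cdh19, a cadherin of that lineage, passed in introns (1.23, edgeR adjusted p = 0.000392) with 23.8% of intron reads uniquely placed. On unique reads its intron call was lost (0.39, edgeR adjusted p = 0.453). Over 17 genes of ependymal cells and motile cilia the median exon minus intron change was 0.00 and 0 passed (4 at an unadjusted p under 0.05). Of these values 9 lay above 0 and 8 below. Foxj1, the regulator of motile cilia, had 0.94, Dnah9, a dynein heavy chain, 0.64 and Ccdc39 0.52, while Ccdc40 had −0.98. The 5 cell cycle genes with enough reads had medians of −0.32 in exons, −0.57 in introns and 0.04 in exon minus intron, but −0.11, −0.07 and −0.40 when both TKO replicate 2 libraries were left out. The cilia median in exon minus intron was then −0.06.

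Some RNA processing genes fell in introns. Of 27 genes known for detained introns or poison exons, 2 passed in introns as lower: Srsf1 (−1.14, edgeR adjusted p = 0.0278) and Srsf11 (−0.79, adjusted p = 0.0346), both splicing factors. Srsf1 had intron reads of 23, 13, 34 and 24 in TKO and 42, 37, 65 and 48 in WT, without overlap, and an exon value of −0.26. The list's median intron change was −0.14 and its median exon minus intron change 0.04. Its intron median was −0.04 when both TKO replicate 2 libraries were left out. The kinases Clk1 and Clk4, which phosphorylate splicing factors, were at 0.60 and 0.43 in exon minus intron (adjusted p = 0.322 and 0.444). Of 22 genes of the SMN complex and the snRNPs it assembles, 1 passed in introns, Snrpf, an Sm protein (−0.78, edgeR adjusted p = 0.049), with a median exon minus intron change of 0.05, which was −0.01 when both TKO replicate 2 libraries were left out. Snrpc, of the U1 snRNP, was at −0.78 in exon minus intron (adjusted p = 0.473). The calls of Srsf1, Srsf11 and Snrpf were lost without both TKO replicate 2 libraries (adjusted p = 0.618, 0.626 and 0.697). Smn1, whose human counterpart is lost in spinal muscular atrophy, the disease in the series title, was at −0.12 in exons, 0.13 in introns and −0.25 in exon minus intron (SE 0.257, adjusted p = 0.77).

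Ribosomal protein genes had a median of 0.21 in exon minus intron, with 24 of 30 above 0, but 0.08 without both TKO replicate 2 libraries. Rps16 was at 0.97 and Rpl19 at 0.57 with all libraries, and at 0.55 and 0.19 without those. Cholesterol synthesis genes had a median of 0.06 over 21, with Nsdhl, an enzyme of sterol synthesis, at −0.57. The p53 response had −0.02 over 16, with Mdm2, the ligase that restrains p53, at 0.38 and Fas, a death receptor, at 0.79. The microRNA effector machinery had 0.04 over 25, with Cnot7, a deadenylase, at −0.66 and Ago2, the slicing Argonaute, at −0.55. Of 20 immediate early genes 2 had enough intron reads. No gene of these lists passed in any of the 3 edgeR tests. At an unadjusted p under 0.05 in exon minus intron there were 5, 4, 1, 1 and 1 genes. With both TKO replicate 2 libraries left out, the medians were 0.15 for cholesterol synthesis, −0.00 for the p53 response and 0.06 for the effector machinery.

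Of 58 published miR-34 targets 40 had enough reads, and none passed in any of the 3 edgeR tests. At an unadjusted p under 0.05 there were 5 in exons, 11 in introns and 7 in exon minus intron. Over all genes these shares were 19.0%, 16.2% and 10.2%. The medians were 0.03 in exons, −0.02 in introns and 0.08 in exon minus intron, with 23 of 40 above 0 in the last. Axl, a receptor tyrosine kinase with the 8mer match printed above, had an exon level of 92.8 ± 4.37 CPM in TKO and 71.9 ± 11.8 in WT, with introns at 33.2 ± 6.05 CPM in TKO and 40.3 ± 6.96 in WT and an exon minus intron value of 0.68 (adjusted p = 0.334). Ccnd1, cyclin D1, which drives cells into S phase, had an exon level of 57.2 ± 2.32 CPM in TKO and 52.7 ± 3.1 in WT and an intron level of 14.3 ± 3.02 CPM in TKO and 24.96 ± 6.82 in WT, a value of 0.90 (adjusted p = 0.322). Smad4, the shared transducer of TGF-beta signals, was at −0.60 (adjusted p = 0.36). The list's centred exon to intron ratio was 0.05, 0.02, 0.00 and 0.06 in TKO and −0.10, −0.11, −0.11 and 0.04 in WT. Thoracic WT replicate 2 lay within the TKO range. With both TKO replicate 2 libraries left out, the intron median turned to 0.02 and the exon minus intron median was 0.10.

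Genes with an 8mer match to the shared seed had slightly higher exon minus intron values than genes with no match of the same 3′ UTR length. Of 10520 genes with an annotated 3′ UTR, 659 (6.26%) held an 8mer, 1253 (11.9%) a 7mer-m8 and no 8mer, 662 (6.29%) only a 7mer-A1 and 7946 (75.5%) none. Because longer 3′ UTRs hold more matches by their length alone, genes were split at 775 and 1937 bases. Among short 3′ UTRs the median exon minus intron change was 0.16 with an 8mer (67 genes) and 0.08 with no match (3247 genes). Among middle lengths it was 0.07 (176) and −0.00 (2719), and among long ones 0.00 (416) and −0.05 (1980). The 8mer genes lay higher in all 3 length classes, by a weighted 0.06, while values fell with 3′ UTR length in both. Without both TKO replicate 2 libraries the medians were 0.10 against 0.01, 0.07 against −0.00 and 0.03 against −0.00. The order of 8mer and no match was the same, and the fall with length among genes with no match was smaller.

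Library by library, the 8mer excess of the genotypes overlapped. The excess in the centred exon to intron ratio, weighted over the 3 length classes, was 0.011, 0.025, 0.017 and 0.053 in TKO and −0.004, −0.037, −0.095 and 0.013 in WT. All 4 TKO values were above 0, and thoracic WT replicate 2 lay above lumbar TKO replicate 1. The means were 0.027 ± 0.019 in TKO and −0.031 ± 0.048 in WT (SD, n = 4). In exon reads alone the 8mer excess was 0.064 ± 0.073 in TKO and −0.064 ± 0.065 in WT, with overlap. In intron reads alone it was 0.014 ± 0.044 in TKO and −0.024 ± 0.017 in WT, also with overlap. The fitted difference in exons was 0.12 with all libraries and 0.06 without both TKO replicate 2 libraries. For 7mer-m8 genes the exon to intron excess was 0.015 ± 0.039 in TKO and −0.015 ± 0.045 in WT, and for 7mer-A1 genes 0.009 ± 0.012 and −0.005 ± 0.022. The 7mer-m8 excess in exons alone was 0.051 ± 0.080 in TKO and −0.056 ± 0.078 in WT. In introns alone it was 0.030 ± 0.042 and −0.031 ± 0.043. Without both TKO replicate 2 libraries the 7mer-m8 genes lay below genes with no match in all 3 length classes. Their median exon minus intron changes were then −0.044 against 0.014 (short), −0.026 against −0.003 (middle) and −0.006 against −0.001 (long). The 6 genes called in exon minus intron, 0.0545% of all genes tested, were 2 with a 7mer-m8 (Padi2 higher, Rabgef1 lower), 1 with only a 7mer-A1 (Mtpn, lower) and 3 with no match (Lpp higher, Clcn6 and Tsc22d3 lower).

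**Figure D5:**
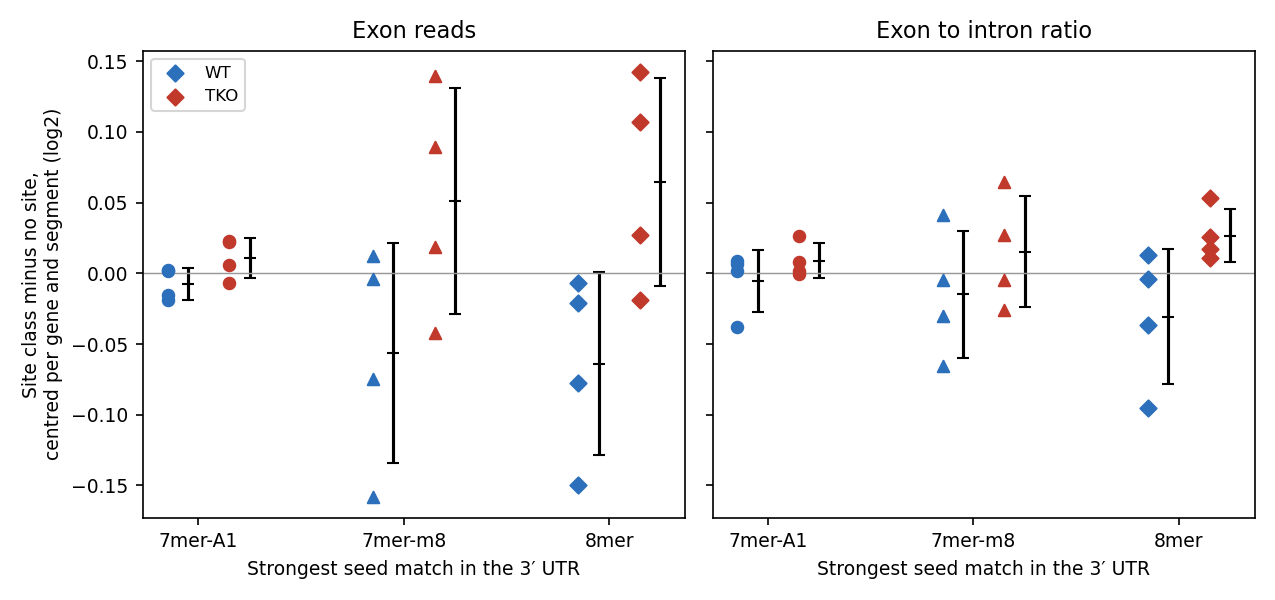
For each class of seed match, the points give per library the median over its genes minus that of genes with no match (y axis, log2, centred per gene and segment, weighted over 3 classes of 3′ UTR length), in exon reads and in the exon to intron ratio, with mean ± SD over the 4 libraries of a genotype. In the exon to intron ratio the TKO points of 8mer genes lie between 0.011 and 0.053, and the WT points between −0.095 and 0.013.

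For other genes named in an earlier account of these libraries, exon and intron values were mostly alike. Col20a1, a collagen, had 1.24 in exons and 0.86 in introns, Ppp1r1b, the phosphatase inhibitor DARPP-32, 1.11 and 1.33, and Hapln2, found at nodes of Ranvier, 0.90 and 1.30. The microglial protease Ctss had 0.77 and 0.86, Csf1r, the receptor for a microglial growth factor, 0.78 and 0.48, and Pygm, a glycogen phosphorylase that astrocytes use, 0.82 and 0.38. Col20a1 and Ppp1r1b passed in introns (edgeR adjusted p = 0.0127 and 0.0229), calls lost without both TKO replicate 2 libraries (adjusted p = 0.266 and 0.508). None of the 6 passed in exons, and their exon minus intron values lay between −0.40 and 0.42. Several genes could not be split at all. Igf1, a growth factor for neurons and glia, had 122, 83, 86 and 91 exon reads in TKO and 308, 369, 424 and 431 in WT, with 4 intron reads in all TKO libraries together and 16 in WT. Lum, a proteoglycan of connective tissue, had 0 intron reads in all 8 libraries. Zfp981, a zinc finger gene, was the reverse, with 391, 419, 345 and 417 intron reads in TKO and 99, 126, 123 and 112 in WT on a mean of 3.75 exon reads.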

How the data were processed

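Per the file headers, the authors deposited 1 table per library with whole-number counts of total and uniquely placed exon, intron and gene reads for each gene. Per the submitters' processing notes the genome build was mm10. No aligner, counter or strand setting is named there. Total exon reads and total intron reads were the values used. Exon and intron counts were scaled separately (TMM) and tested with edgeR 4.0.16 (quasi-likelihood, robust, R 4.3.3) with segment as a term. The exon minus intron change was the exon by TKO term of a fit over 16 columns, the exon and intron counts of each library, with library as a block. P-values were adjusted over all 11004 genes by the Benjamini-Hochberg method, at 0.05. CPM are reads per 1000000 of the scaled exon or intron library, so the 2 kinds are on separate scales. Log2 values per library used a prior of 0.5 reads. Levels are not per length and were not compared between genes.

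Named genes are those with the largest change among calls without overlap between genotypes (up to 10 in each direction, or the smallest p up to 5), list members of smallest p, up to 4 per list, and genes named in an earlier account. Myrf, Aldoc and Csf3r, and the genes listed near Mir34a beyond these, were added after their values were seen. Gene models known only by a number or clone identifier were counted without being named. The genes, the 20 lists and the comparisons were chosen with earlier results of these data known. Seed matches and tables used Python 3.11.15, numpy 2.4.6 and pandas 2.3.3. No 2 libraries of a group were alike within counting error (chi-square per degree of freedom 16.99 to 45.5 for exons, 2.71 to 4.35 for introns). Tested on simulated counts for 11004 genes, the exon minus intron test recovered 84% of 50 genes changed 2-fold in introns only and 98% of 50 changed 4-fold, with 0.037% false calls. Genes changed in exons only were not simulated, so these rates do not cover a rise in exons without one in introns. The simulated library noise was drawn separately for each gene. Deviations shared by many genes of a library were not simulated, so these rates may not hold for the real libraries. Alternatives included DESeq2 1.42.0, limma 3.58.1 (voom, and on log2 differences), other size factors and filters, unique reads, genes that overlap no other, single segments, a replicate block, summed libraries and each library left out. Reads across exon junctions and genes with 90% or more unique reads were alternatives chosen after seeing the data.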

Additional observations from a re-analysis of the deposited data

Results flagged for a closer look

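In a group of 4 libraries, a library was singled out where its gap to the nearest other was above Dixon's 95% critical value as a share of the range, which chance gives for about 1 in 20 groups. Of 70 groups examined, 6 were singled out. For Lpp, the intron value of thoracic TKO replicate 2 lay below the other TKO libraries (ratio 0.841), and the exon minus intron value of lumbar WT replicate 2 below the other WT libraries (0.902). For Mtpn, the intron value of thoracic TKO replicate 1 lay above the other TKO libraries (0.886). For Bcl2l1 the intron value of lumbar WT replicate 2 (0.844), for Itih3 the exon value of lumbar WT replicate 1 (0.831) and for Clmp the exon value of thoracic WT replicate 2 (0.925) lay below the other WT libraries.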

How the results depend on the processing

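Calls for exon, intron and exon minus intron change, 8, 158 and 6 with all libraries, were 450, 158 and 9 with DESeq2, 8, 140 and 3 with voom, 3, 76 and 3 at a mean of 50 reads, 86, 455 and 74 with no filter, 4, 71 and 3 among genes that overlap no other, and 6, 102 and 5 from 4 group means. They were 1, 5 and 1 in the lumbar and 1, 4 and 3 in the thoracic cord, and 1, 20 and 4 with summed libraries. Leaving out 1 library gave 1 to 1533 exon, 22 to 268 intron and 2 to 9 exon minus intron calls. The 1533 came without lumbar TKO replicate 1, and exon calls fell to 5 without lumbar TKO replicate 2, to 2 without thoracic TKO replicate 1 and to 1 without lumbar or thoracic WT replicate 2. Exon minus intron calls fell to 2 without lumbar TKO replicate 2 or lumbar WT replicate 2 and to 3 without thoracic TKO replicate 2. Without both TKO replicate 2 libraries there were 8, 21 and 2. On exon scaling there were 428 intron and 12 exon minus intron calls, with no library block 3 and with limma on log2 differences 2 exon minus intron calls. Junction reads gave 1 exon call.

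The labels do not say that a replicate number marks a shared mouse or batch, and the data gave no common sign. Deviations of same-numbered libraries correlated at −0.52 (lumbar) and 0.51 (thoracic) between genotypes in exons and at −0.08 and 0.04 in introns. Between segments they correlated at 0.58 in TKO and −0.49 in WT in exons, and at 0.24 and 0.36 in introns. With the replicate block the counts were 12, 357 and 9. Directions turned for Mtpn on unique reads (−0.91 in introns, 0.35 in exon minus intron). For exon minus intron values that had not passed they turned for Cdh19 on unique reads (0.19), Foxj1 (−0.0324) and Ppp1r1b (0.0946) with junction reads, Hapln2 (0.47) and Smn1 (0.0682) in the lumbar cord and Ctss with limma (0.0503). For Csf3r (0.0462) it turned in the lumbar cord (−0.0556), on exon scaling (−0.167) and without both TKO replicate 2 libraries (−0.0590), and ranged from −0.114 to 0.220 without 1 library. The cause was not tested. The 8mer excess in exon minus intron was 0.06 and stayed between 0.04 and 0.09 in all alternatives. Intron counts limit the split: a median of 46.5 reads per library gave a median standard error of 0.24.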
